A study of Ovis aries with 14 samples.

Results

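The Notch pathway genes described here are the receptors NOTCH1, NOTCH2, NOTCH3 and NOTCH4, the ligands JAG1, JAG2 and DLL4, and the target genes HES1, HEY1 and HEY2. They were found by gene name in the deposited tables of sheep ovary RNA. Of the 10 genes, 8 were measured in all 3 tables, among 15175 genes that the tables share, and NOTCH3 and JAG2 were not measured under those names. Each table also holds between 3658 and 3928 rows without a gene name, which could not be matched to genes. The identifiers of the measured genes were ENSOARG00000003820 for NOTCH1, ENSOARG00000020442 for NOTCH2, ENSOARG00000017704 for NOTCH4, ENSOARG00000010523 for JAG1, ENSOARG00000020309 for DLL4, ENSOARG00000020422 for HES1, ENSOARG00000008063 for HEY1 and ENSOARG00000007915 for HEY2.

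RNA came from whole ovaries of wild type Suffolk sheep and was read from 1 library per sample. The fetal groups, taken at day 90 of gestation, were 3 controls and 3 fetuses whose mothers were injected with testosterone propionate from day 30 to day 90. The adult groups, taken at year 2, were 4 controls and 4 animals with the same prenatal exposure, and the controls are labelled only as such, with no agent named. The series text counts 3 adult controls and 4 testosterone animals, where the labels list 4 of each, and all 8 labelled adults were used here. The column of adult testosterone 5 carries the added word Resub, which the labels do not explain. The labels do not tie the numbered samples to mothers or litters, so each p-value reflects the scatter of these samples only, which may be technical.

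Notch is a receptor on the cell surface that is switched on by a ligand, of the Jagged or Delta-like kind, carried by a neighbouring cell. Binding lets proteases release the inner part of the receptor, which moves to the nucleus, joins the DNA-binding protein RBPJ and turns on repressors of the HES and HEY families. In the ovary the pathway is known for signals between oocytes and granulosa cells while follicles form, with JAG1 and NOTCH2 as the best known pair there, and for the growth of vessels, where DLL4 and NOTCH4 are typical of endothelium and HEY2 of arteries.

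Levels are normalized counts, in which the reads of each gene are scaled by the depth of the library, put on 1 scale for all 14 libraries. They are compared between libraries and not between genes, since transcript length was not used. The libraries held between 22.6 and 33.4 M recovered reads each. The germ cell marker DDX4 lay between 2808 and 5899 in the fetal ovaries and between 23.3 and 92.8 in the adult ones. The granulosa cell markers FOXL2, AMH and CYP19A1 were not found by name. The 8 measured granulosa genes summed to between 20573 and 31245 in the fetuses and between 32628 and 73277 in the adults. Among them FSHR, the receptor of follicle-stimulating hormone, lay between 7.90 and 36.9 in the fetuses and between 108 and 1769 in 7 adult libraries. Adult control 4 stood apart from the other adult ovaries, with FSHR at 5.19, although 2 of the 8 granulosa genes were highest there among the adults. Its 11 measured smooth muscle and pericyte genes summed to 978463, against 247578 in the next adult library, and its 14 measured endothelial genes to 138704, against 70158. Results that rest on that library are given with and without it.

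In the fetal ovary the 8 genes varied little from library to library. The SD of the log2 level over the 6 fetal libraries ran from 0.16 for HES1 to 0.36 for DLL4. NOTCH2 was the tightest among the controls, with 9061, 9083 and 8906 in controls 1, 2 and 3, while the testosterone fetuses had 5474, 8802 and 11008. The 3 testosterone values lay on both sides of the 3 controls.

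**Figure D1:**
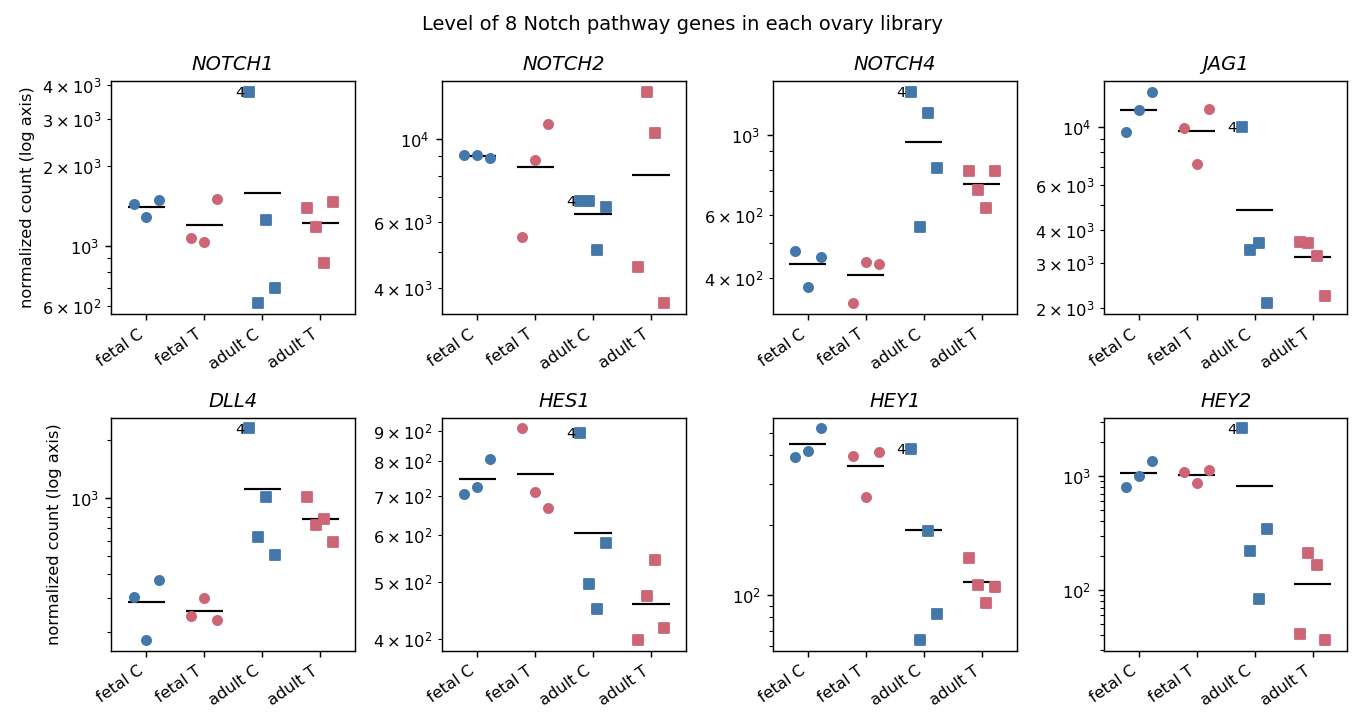
Normalized counts of the 8 measured Notch pathway genes in each library, on log axes that differ between genes. Circles are fetal and squares adult libraries, blue is control (C) and red testosterone (T), bars are group means, and 4 marks adult control 4, which is the highest adult library for 7 of the 8 genes.

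No member of the pathway passed the test for testosterone in the fetal ovary. With limma on log2 of the value plus 1, 0 of 8 members had an adjusted p under 0.05, where 0.0182% of all 16513 genes did, and 0 of 8 had an unadjusted p under 0.05. DESeq2 called 1.58% of all genes and edgeR 0.0242%, and each called 0 of the 8 members. The log2 changes, testosterone minus control, were negative for 7 of the 8 members, with a median of -0.13 against -0.019 over all genes. The testosterone and control ranges overlapped for all 8 members, where 16.3% of all genes had ranges that did not overlap.

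Among the receptors, NOTCH1 was 1433, 1291 and 1488 in the fetal controls and 1070, 1039 and 1506 in the testosterone fetuses. Testosterone fetuses 1 and 2 lay below every control and testosterone fetus 3 above them, and the log2 change of -0.24 (SE 0.15) had an adjusted p of 0.636 in limma. NOTCH4, a receptor found mostly on endothelium, was 437.5 ± 52.4 in controls and 408.1 ± 58.4 in testosterone fetuses (SD, n = 3 each).

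The ligand JAG1 was 9585, 11651 and 13735 in the fetal controls and 9961, 7184 and 11785 in the testosterone fetuses. The highest value was a control and the lowest a testosterone fetus, but the groups overlapped, and the log2 change of -0.29 (SE 0.19) had an adjusted p of 0.646 in limma. DLL4, the Delta-like ligand of growing vessels, was 288.0 ± 97.5 in controls and 258.9 ± 36.4 in testosterone fetuses (SD, n = 3 each).

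Of the target genes, HEY1 had 394, 418 and 521 in the controls and 396, 264 and 413 in the testosterone fetuses. Its log2 change of -0.33 (SE 0.20, 95% interval -0.78 to 0.13) had an adjusted p of 0.623 in limma, and ran from -0.44 to -0.13 when 1 library was left out, with the smallest size without testosterone fetus 2. The same ranges were -0.44 to -0.094 for JAG1 and -0.40 to -0.15 for NOTCH1, also smallest in size without testosterone fetus 2. The authors' deposited table gave HEY1 a log2 change of -0.31 with an adjusted p of 0.666. HES1 changed by 0.023 on the log2 scale (interval -0.30 to 0.34) and HEY2 by -0.0076 (interval -0.44 to 0.42).

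In the adult ovary, 0 of 8 members passed the limma test for testosterone, where 0.0127% of 15757 genes did, and 0 of 8 had an unadjusted p under 0.05. The 2 groups overlapped for all 8 members, where 0.704% of all genes had ranges that did not overlap. The log2 changes ran from -2.06 for HEY2 to 0.15 for NOTCH2, with a median of -0.33 against -0.0054 over all genes, and the adjusted p was 0.9999 for each. Intervals were wide: for JAG1 the log2 change was -0.36 (SE 0.44, 95% interval -1.35 to 0.62) and for NOTCH1 0.013 (SE 0.53, interval -1.18 to 1.21).

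HEY2, a target gene that marks arterial endothelium and is also made in smooth muscle, spread most in the adults. It was 2620, 221, 83.7 and 342 in controls 4, 5, 6 and 7, and 40.7, 212, 165 and 36.4 in testosterone animals 4, 5, 6 and 7. Control 4 was 7.66 times the next adult library, and the other 3 controls overlapped the testosterone group. The log2 change of -2.06 (SE 1.04, interval -4.41 to 0.29) became -1.11 without control 4 and -1.55 with the luteal marker level as a covariate. Its adjusted p in limma was 0.9999 with control 4 and no covariate. The lowest libraries, testosterone 7, testosterone 4 and control 6, had the highest luteal genes of the adults, as given below. In the authors' deposited adult tables the log2 change of HEY2 was -2.80 in the first and -2.86 in the second, and control 4 is in both. The authors' own test gave unadjusted p of 0.0125 and 0.0086, with an adjusted p of 0.9999 in the first.

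Without control 4 the adult log2 change turned its sign for 3 other members. It moved from -0.36 to 0.08 for JAG1, from -0.28 to 0.16 for DLL4 and from -0.35 to 0.17 for HEY1. NOTCH1 and NOTCH4 kept their sign, at 0.57 in place of 0.013 and at -0.14 in place of -0.32. None of the 8 members passed in limma without that library.

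**Figure D2:**
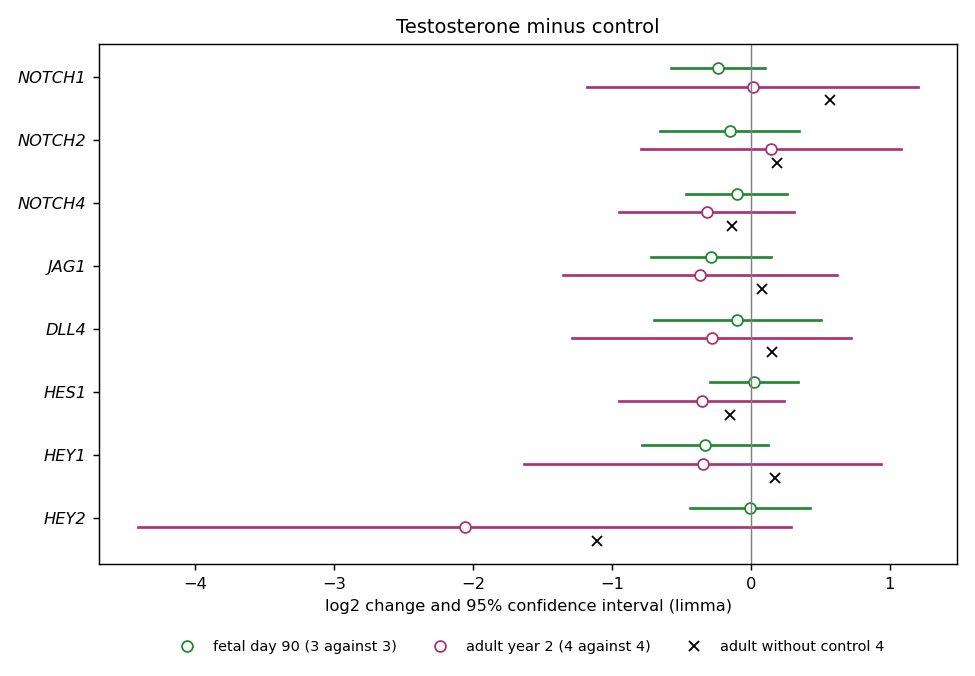
Log2 change, testosterone minus control, of the 8 measured members with 95% intervals from limma, in green for the fetal and in purple for the adult ovary. Every interval holds 0, and the crosses, adult values without control 4, move HEY2 from -2.06 to -1.11.

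A difference between the fetal and the adult effect of testosterone was tested as an interaction over the 14 libraries. In limma 0 of 8 members passed, where 0.00659% of genes did. The interaction ran from -2.06 for HEY2 (SE 1.30) to 0.30 for NOTCH2 (SE 0.55), with an adjusted p of 0.9999 for each member.

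How widely adult ovaries spread depended on the gene, the group and control 4. The SD of the log2 level over the 8 adult libraries ran from 0.37 for HES1 to 1.95 for HEY2. Without control 4 it fell from 0.69 to 0.34 for JAG1 and from 0.69 to 0.38 for DLL4. HEY2 had 1.25 and NOTCH2 0.67 without that library. Within the adult controls the SD ran from 0.21 for NOTCH2 to 2.09 for HEY2. Within the adult testosterone animals it ran from 0.16 for NOTCH4 to 1.31 for HEY2. NOTCH2 was at 0.91 there, and NOTCH1, at 0.34, was the next. NOTCH1 was 3782, 611, 1250 and 700 in controls 4 to 7 and 1392, 1177, 865 and 1462 in testosterone animals 4 to 7. Control 4 was 2.59 times the next adult library for NOTCH1, 2.79 times for JAG1, 2.28 times for DLL4, 2.26 times for HEY1, 1.54 times for HES1 and 1.15 times for NOTCH4. It was the highest adult library for 7 of the 8 members, the exception being NOTCH2, and for 14 of 14 endothelial and 10 of 11 smooth muscle and pericyte genes. The part of these cell types in the Notch values was not tested, and in whole-ovary RNA a different number of cells of a type and a different amount of RNA per cell cannot be told apart.

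NOTCH2 followed another order. Its levels were 6853, 6841, 5045 and 6575 in controls 4 to 7 and 4545, 13435, 10419 and 3635 in testosterone animals 4 to 7. The 3 lowest adult values, in testosterone 7, testosterone 4 and control 6, were also the 3 lowest adult values of HEY2 and of HES1. The same libraries held the hormone gene OXT, a marker of the sheep corpus luteum, at 68252, 122264 and 105432, against 24.1 to 87.5 in the other 5 adults. Their 8 measured luteal genes summed to between 463224 and 578457, where the highest of the other 5 adults had 77132, and the part of luteal tissue in the NOTCH2, HEY2 and HES1 values was not tested.

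DLL4, JAG1 and HEY1 ranked in another way. DLL4 was highest in control 4 at 2301, then in testosterone 4 at 1009 and control 6 at 1008. JAG1 had the same 3 libraries on top in the same order, at 10067, 3613 and 3569, with testosterone 5 close behind at 3557. The endothelial marker PECAM1 had the same 3 libraries on top, at 15580, 10384 and 7777, while the other 5 adults lay between 1757 and 4357. HEY1 was also highest in control 4 at 425, control 6 at 188 and testosterone 4 at 145, and between 64.0 and 110 in the other 5. NOTCH4 did not share this order: its 3 highest adult libraries were control 4 at 1320, control 6 at 1149 and control 7 at 811, and testosterone 4 was at 794.

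**Figure D3:**
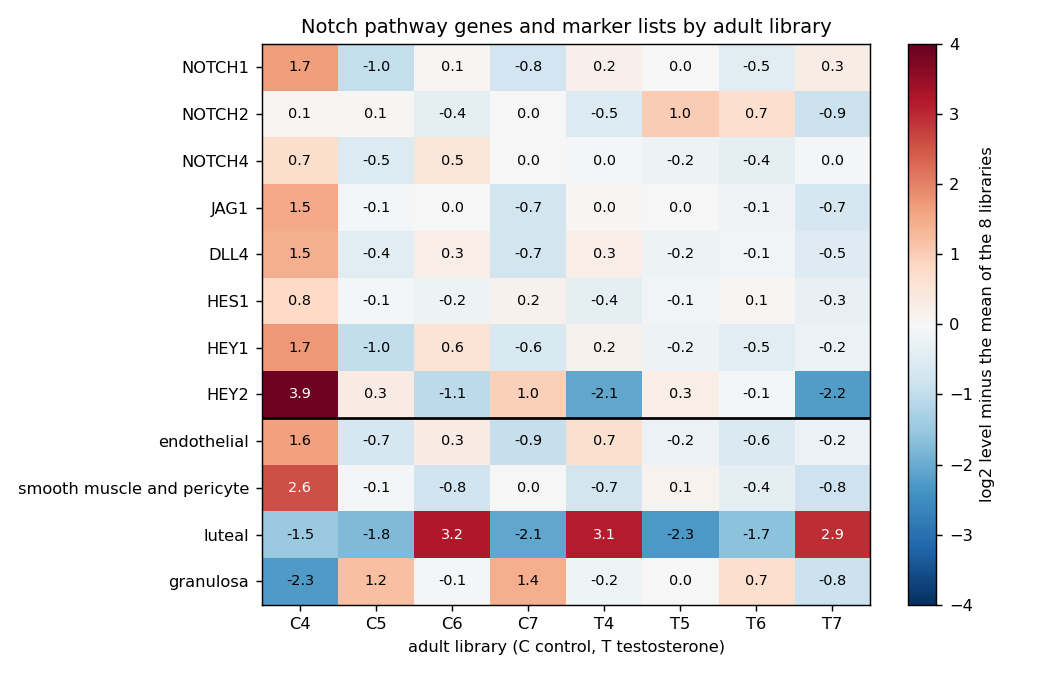
Log2 level of each measured member, and mean log2 level of 4 marker lists, in each adult library minus the mean of the 8 libraries (red above, blue below). Control 4 has the highest value in the row for 7 of 8 members and for the endothelial and smooth muscle lists, and HEY2, NOTCH2 and HES1 have their 3 lowest values in C6, T4 and T7, where the luteal list is red.

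Between the ages the Notch genes differed in opposite directions: in the testosterone animals the adult ovary held more DLL4 and NOTCH4, and less JAG1, HEY1, HEY2 and HES1. This was tested in 2 comparisons that share no library, the controls and the testosterone animals, and in each the 3 fetal libraries were compared with the 4 adult ones. In the testosterone libraries 6 of 8 members passed in limma, 2 higher and 4 lower, where 23.1% of all genes passed, 10.8% higher and 12.3% lower. In the controls 2 of 8 passed, 1 in each direction, where 20.9% of all genes passed, 9.24% higher and 11.6% lower. Age cannot be told apart from any batch that goes with it, because no deposited table holds both ages.

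The ligands DLL4 and JAG1 went opposite ways. DLL4 was 307, 182 and 375 in fetal controls and 244, 300 and 232 in testosterone fetuses. In adults it was 2301, 629, 1008 and 503 in the controls and 1009, 721, 774 and 588 in the testosterone animals. Each adult library lay above each fetal one, which held for DLL4 and NOTCH4 among the 8 members and for 11.2% of all genes. The log2 change of DLL4 was 1.56 (SE 0.23) in the testosterone libraries, with an adjusted p of 0.00296, and 1.74 (SE 0.53) in the controls, with an adjusted p of 0.0528, both from limma. In the controls DLL4 was not called in edgeR either, at an adjusted p of 0.0506, nor without fetal control 1, 2 or 3 or adult control 5 or 6, at 0.0683 to 0.189. It passed without adult control 4, at 1.31 with an adjusted p of 0.0373, and without adult control 7, at 2.04 with an adjusted p of 0.0318, and in DESeq2, which called 34.2% of all genes, with an adjusted p of 0.0035. In limma it also passed with quantile normalization, at 0.0356, and with library weights, at 0.0014, and did not with TMM factors, at 0.0519.

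JAG1, the Jagged ligand best known from the follicle, was lower in most adults. It was 9585 to 13735 in the fetal controls and 7184 to 11785 in the testosterone fetuses, against 3613, 3557, 3182 and 2219 in the adult testosterone animals. The adult controls were 10067, 3364, 3569 and 2087, so that control 4 alone lay in the fetal range. In limma the log2 change of JAG1 was -1.61 (SE 0.23) in the testosterone libraries, with an adjusted p of 0.00282. In the controls it was -1.53 (SE 0.48), with an adjusted p of 0.0582, and without control 4 it was -1.98 with an adjusted p of 0.00256, while it did not pass without any other library, at 0.0812 to 0.183. DESeq2 called JAG1 in the controls with control 4 included, at an adjusted p of 0.0452, and edgeR, which called 20.7% of all genes, did not call it, at 0.0940. With control 4 included, limma called it with quantile normalization, at 0.0129, and with library weights, at 2.3e-05, and did not with TMM factors, at 0.0513.

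The ratio of the 2 ligands, which was chosen after their values were seen, parted the ages in all 14 libraries. DLL4 alone also parted them, and the share of gene pairs that do so was not counted, so the ratio is a description. JAG1 over DLL4 had a median of 38.8 in the fetuses, from 23.9 to 63.8, and of 4.13 in the adults, from 3.54 to 5.34. Control 4 was not apart from the other adults in this ratio, at 4.37. A ratio of receptors chosen in the same way, NOTCH2 over NOTCH4, did not part the ages, at 16.1 to 25.1 in the fetuses and 4.39 to 19.1 in the adults. Such a ratio compares libraries and says nothing of how many molecules of each there were, since lengths were not used.

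Of the receptors, NOTCH4 was higher in adults. It was 477, 378 and 458 in fetal controls and 341, 444 and 439 in testosterone fetuses, against 1320, 557, 1149 and 811 in adult controls and 794, 704, 629 and 795 in adult testosterone animals. In limma its log2 change was 0.84 (SE 0.19) in the testosterone libraries, with an adjusted p of 0.0152, and 1.06 (SE 0.31) in the controls, with an adjusted p of 0.0475. The call in the testosterone libraries was lost without fetal testosterone 1, at an adjusted p of 0.0789, and without fetal testosterone 3, at 0.0523. The call in the controls was lost without fetal control 1, 2 or 3, at 0.124, 0.171 and 0.135, and without adult control 4, 6 or 7, at 0.0577, 0.0885 and 0.0557, with changes of 0.88 to 1.13. For NOTCH4 and DLL4 the direction was the same in all 7 of these leave-outs in each comparison.

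NOTCH2 passed in the controls only by a narrow margin. Its fetal controls lay between 8906 and 9083 and its adult controls between 5045 and 6853, a log2 change of -0.52 (SE 0.15) with an adjusted p of 0.0494 in limma. The call was lost without fetal control 1, 2 or 3, at adjusted p of 0.163, 0.170 and 0.155, without adult control 5, at 0.0730, and without adult control 7, at 0.0540. It was not called in edgeR, at an adjusted p of 0.0548, and was called in DESeq2, at 0.0086. In limma it passed with quantile normalization, at 0.0159, and with TMM factors, at 0.0433. In the testosterone libraries the log2 change of NOTCH2 was -0.22 (SE 0.48), with an adjusted p of 0.767, and the groups overlapped. NOTCH1 had a log2 change of -0.23 (SE 0.59) in the controls and of 0.015 (SE 0.23) in the testosterone libraries, and passed in neither, with adjusted p of 0.805 and 0.970 in limma.

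All 3 target genes were lower in adult than in fetal testosterone libraries. HEY2 was 1081, 868 and 1140 in testosterone fetuses against 36.4 to 212 in adults, a log2 change of -3.57 (SE 0.64) with an adjusted p of 0.00691 in limma. HEY1 was 396, 264 and 413 against 92.6 to 145, a log2 change of -1.63 (SE 0.27) with an adjusted p of 0.00515. HES1, the member of the HES family measured here, was 910, 709 and 667 against 398, 473, 544 and 417. For all 3 genes, and for JAG1, each adult value lay below each fetal one in these libraries, as it did for 20.3% of all genes.

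The log2 change of HES1 was -0.73 (SE 0.20) with an adjusted p of 0.0328 in limma, and it depended on single libraries. The call on HES1 was lost without fetal testosterone 1, 2 or 3, at adjusted p of 0.149, 0.0906 and 0.0754, and without adult testosterone 4 or 7, at 0.0535 and 0.0587. The calls on HEY1, HEY2, JAG1 and DLL4 in the testosterone libraries held without any 1 of the 7 libraries.

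In the controls none of the 3 targets passed, and control 4 lay within or above the fetal range for each. HEY2 was 806, 1009 and 1344 in fetal controls, and of the adult controls only control 4, at 2620, was not below them. HEY1 was 394, 418 and 521 in fetal controls and 425, 64.0, 188 and 82.9 in adult controls 4 to 7. HES1 was 704, 724 and 808 in fetal controls and 895, 496, 449 and 582 in adult controls 4 to 7. In limma the log2 changes in the controls were -1.52 (SE 1.02) for HEY2, -1.61 (SE 0.62) for HEY1 and -0.35 (SE 0.26) for HES1, with adjusted p of 0.317, 0.104 and 0.362. The size of the HEY2 change depended on the method, at -0.37 in DESeq2 and -0.42 in edgeR, and was -0.82 in limma without adult control 6.

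Without control 4 the age changes of the targets in the controls were larger in size. HEY2 then had a log2 change of -2.47 with an adjusted p of 0.0141 in limma, and HEY1 of -2.13 with an adjusted p of 0.0119. HES1 had -0.56 with an adjusted p of 0.0523. None of the 3 passed when any other library was left out. Over the 7 adult libraries other than control 4, JAG1, HES1, HEY1 and HEY2 each lay below all 6 fetal libraries, which 14.3% of all genes did.

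**Figure D4:**
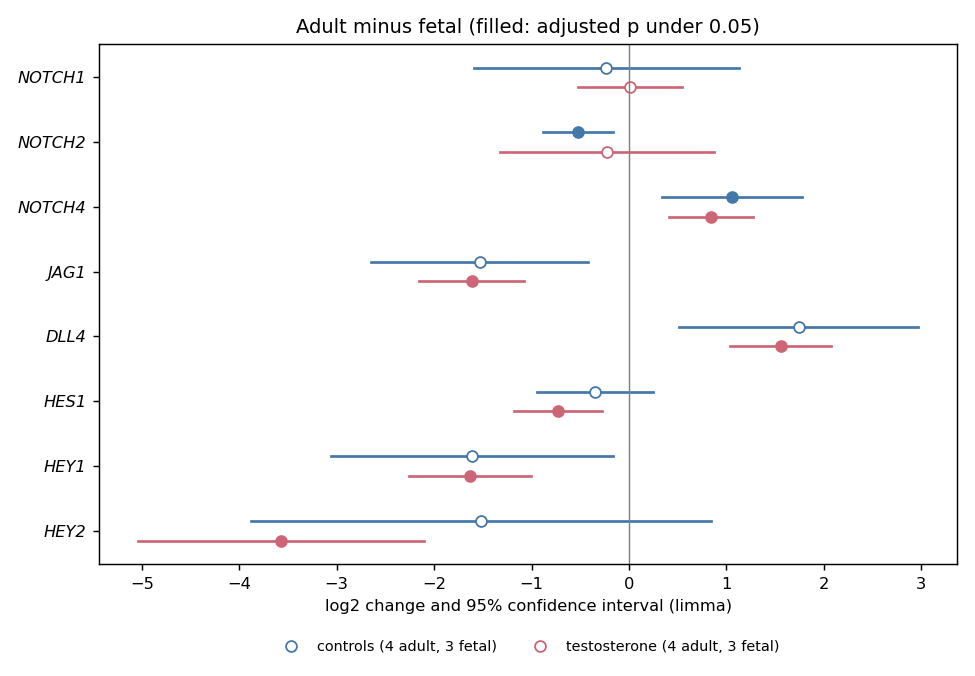
Log2 change, adult minus fetal, of the 8 measured members with 95% intervals from limma, in blue for the controls and in red for the testosterone libraries, filled where the adjusted p is under 0.05. DLL4 and NOTCH4 lie to the right of 0 and JAG1, HES1, HEY1 and HEY2 to the left in both, with wider control intervals.

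In a fit to all 14 libraries with treatment as a term, added after the values were seen, 45.6% of genes passed in limma. NOTCH4 was higher in adults by 0.95 and DLL4 by 1.65 on the log2 scale, with adjusted p of 0.00070 and 0.00047. The log2 change was -1.57 for JAG1, -1.62 for HEY1, -2.54 for HEY2 and -0.54 for HES1, with adjusted p of 0.00042, 0.0017, 0.0078 and 0.0146. NOTCH2 and NOTCH1 did not pass, with adjusted p of 0.270 and 0.809.

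Markers of other cell types were read between the ages in the same fits. The 14 endothelial genes summed to between 14509 and 22346 in the fetal libraries and between 20605 and 138704 in the adult ones. Of these genes 7 were called higher in limma in the testosterone libraries and 1 in the controls. Of all genes 10.8% and 9.24% were called higher there, so the endothelial count in the controls is near that share. Of 6 measured germ cell genes, 6 were called lower in the testosterone libraries and 5 in the controls, against 12.3% and 11.6% of all genes. In the testosterone libraries and the controls, in that order, 4 and 3 of 11 smooth muscle and pericyte genes were called higher, 3 and 2 of 8 granulosa genes, 2 and 1 of 8 luteal genes and 4 and 0 of 6 macrophage genes, and of these lists no gene was called lower. The luteal and macrophage counts in the controls are near or under the share of all genes. In the same order 0 and 1 of 5 theca and 2 and 2 of 6 stroma genes were called higher. Of 3 surface epithelium genes 1 and 1 were called lower. The part of these cells in the age differences of DLL4, NOTCH4, JAG1 and the target genes was not tested.

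Other genes of the pathway, a list of 54 that modify, cut, transmit or repress the signal, were read in the same fits. In the fetuses 0 of 45 measured genes passed for testosterone in limma, and 4 had an unadjusted p under 0.05, which is 8.89% of them against 9.76% of all genes, so the list does not stand out. The changes were -0.22 (SE 0.09) on the log2 scale for RBPJ, the DNA-binding partner of the receptor, -0.27 (SE 0.11) for ADAM17, a protease that can cut it, 0.26 (SE 0.08) for the corepressor HDAC1 and 0.20 (SE 0.08) for the corepressor CIR1, with adjusted p of 0.386 to 0.477. In the adults 0 of 43 passed for testosterone and 0 had an unadjusted p under 0.05, and for the interaction 0 of 43 passed.

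Between the ages 9 of 43 of these genes passed in the controls in limma, 2 higher and 7 lower in adults, and 8 of 43 in the testosterone libraries, 4 higher and 4 lower. These are 20.9% and 18.6% of the list, against 20.9% and 23.1% of all genes, so the list as a whole is at or under the background, and the genes named next are a description of its members. The 5 genes that passed in both had the same sign in both. Those lower in adults were DLK1, a Delta-like protein that lacks the usual receptor-binding part, APH1B, a subunit of the gamma-secretase that frees the inner part of the receptor, and FBXW7, which marks that inner part for breakdown. Those higher in adults were MFNG, a Fringe enzyme that adds sugar to the receptor and alters its choice of ligand, and DTX1, a ubiquitin ligase that binds it.

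DLK1 was 1936 ± 359 in testosterone fetuses (SD, n = 3) and 42.6 ± 46.4 in adult testosterone animals (SD, n = 4), a log2 change of -6.20 (SE 0.88). In the controls it was 2801 ± 813 and 367.1 ± 686.2, a log2 change of -5.39 (SE 1.46), and that call had an adjusted p of 0.0376 in limma and 0.187 in edgeR. The call in the controls was lost without any 1 fetal control and without adult control 5, 6 or 7, with adjusted p up to 0.126. Without adult control 4 it held, at a log2 change of -6.86 with an adjusted p of 0.00020 in limma. APH1B had log2 changes of -2.75 (SE 0.27) in the controls and -2.25 (SE 0.36) in the testosterone libraries, and FBXW7 of -1.18 (SE 0.17) and -1.05 (SE 0.18). Both calls on APH1B and both on FBXW7 held without any 1 library.

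MFNG was 177.4 ± 29.0 in fetal and 1223 ± 990 in adult controls, and 180.7 ± 48.7 in fetal and 926.3 ± 364.4 in adult testosterone libraries (SD, n = 3 fetal and 4 adult). Its log2 changes were 2.43 (SE 0.59) and 2.31 (SE 0.33), and the call in the controls was lost without any 1 fetal control or adult control 6, with adjusted p up to 0.106. LFNG, another Fringe enzyme, had a log2 change of 2.18 (SE 0.51) in the testosterone libraries, where it passed, and of 1.54 in the controls, where its adjusted p was 0.113. The call on LFNG was lost without fetal testosterone 1 or 3, with adjusted p up to 0.0832.

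DTX1 had log2 changes of 1.26 in the controls and 1.32 in the testosterone libraries, with adjusted p of 0.0470 and 0.0107 in limma, and the second call was lost without fetal testosterone 1, at 0.0570. How far its call in the controls depends on single libraries is not given here. HEYL, a relative of HEY1 and HEY2, was lower in adult testosterone libraries, with a log2 change of -1.20 (SE 0.22), and had -0.84 in the controls with an adjusted p of 0.467. NEURL1B, a ubiquitin ligase of the ligands, was higher by 1.10 (SE 0.29) in the testosterone libraries, a call lost in 6 of the 7 leave-outs, all but that of adult testosterone 7, with adjusted p up to 0.0976.

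The other 4 named genes were lower in adult controls. They were MIB1, a ubiquitin ligase of the ligands, at -0.79 (SE 0.15), the protease ADAM17 at -0.60 (SE 0.16), the corepressor TLE1 at -0.68 (SE 0.18) and DTX2, a relative of DTX1, at -1.06 (SE 0.29), all on the log2 scale. Each of these calls was lost without any 1 of the fetal controls, with adjusted p up to 0.0648, 0.153, 0.138 and 0.155 in limma. The calls on ADAM17 and DTX2 were also lost without adult control 5, and that on DTX2 without adult control 7.

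**Figure D5:**
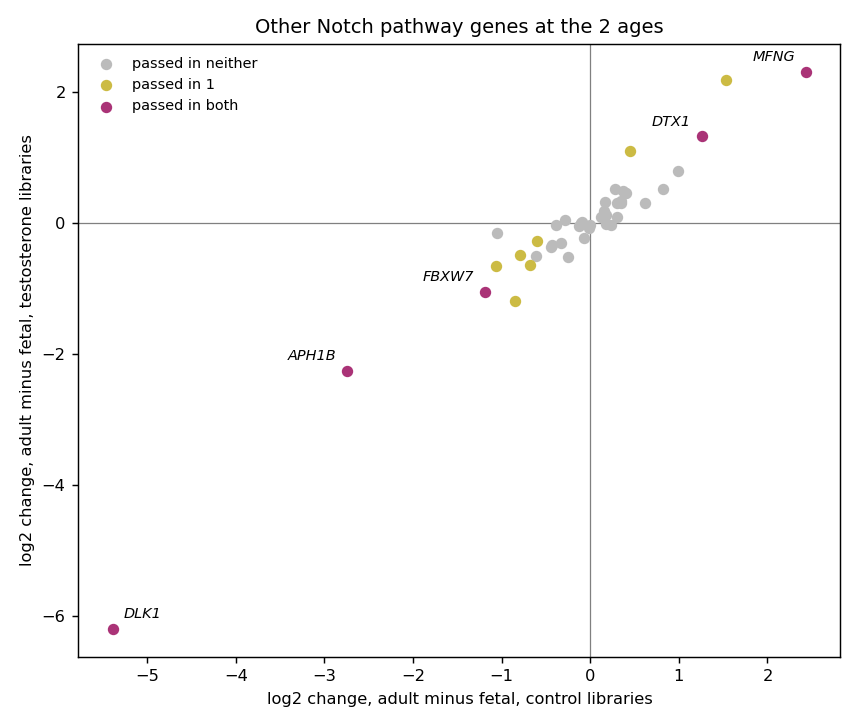
Log2 change, adult minus fetal, of the 43 other measured Notch pathway genes in the controls (horizontal) and in the testosterone libraries (vertical), coloured by whether they passed in limma in both, 1 or neither. The 5 genes named in the plot passed in both, from DLK1 at the lower left to MFNG at the upper right.

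Over the 14 libraries the members that varied most were HEY2, HEY1, DLL4 and JAG1, with SDs of the log2 level of 1.95, 1.06, 1.01 and 0.97. For each, the named genes with the most similar pattern were found among 11819 genes, by the mean absolute difference of log2 levels after each gene's mean was taken off. For HEY1 they were COBLL1 at 0.16, JAG1 at 0.24 and NSG1 at 0.24, and for JAG1 they were NSG1 at 0.18, ETV5 at 0.20 and PCGF5 at 0.22. DLL4 was nearest to USHBP1 at 0.18, VIM at 0.21 and FAM198A at 0.21. For HEY2 they were LINGO1 at 0.40, GPR1 at 0.42 and RBPMS2 at 0.47. This measure grows with the spread of a gene, which was largest for HEY2, so its distances are not set against those of the other members. LINGO1 was 1765 in adult control 4 and between 24.9 and 150 in the other 7 adults, against 412 to 1135 in the fetuses.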

How the data were processed

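RNA of 14 sheep ovaries was sequenced, and the submitters' processing notes name Trimmomatic 0.36 and STAR 2.5.2b, while the counting program and genome build were not given in the sources used here. In each of 3 tables the authors gave a deposited signal column per library, which is a normalized count, and columns of log2 fold change and p-value. Every value was a whole multiple of the library's step within 0.01, 100% in each library, so reads were recovered. The 2 adult tables share 4 libraries. All 8 adult libraries were joined on recovered reads with median-of-ratios factors, with control 6 from the second table, where it has 33.4 M reads against 26.4 M in the first.

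Groups were compared in R 4.3.3 by limma 3.58.1 (trend option) on log2(normalized count + 1), leaving out genes whose mean was under 10, with Benjamini-Hochberg adjustment over all genes and a threshold of 0.05. The fetal comparison used the values as deposited. Alternatives were DESeq2 1.42.0 and edgeR 4.0.16 on recovered reads, other scalings and pseudocounts, library weights, marker covariates, either adult table alone and leaving out each library. Members, lists and the naming rule were chosen with earlier results of these data known. The naming rule took all members, other pathway genes past the threshold up to 8 per comparison, or up to 4 with an unadjusted p under 0.05 if none passed, and 3 nearest genes for the 4 members of largest spread. DTX1 in the controls lies outside the rule and was named after its values were seen. The fits were tested on simulated data. No sequences or coordinates were used.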

Additional observations from a re-analysis of the deposited data

Results flagged for a closer look

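Among the 8 measured members in the 2 adult groups of 4, 2 of 16 groups held a library far from the other 3. The genes share the same libraries and the gaps were taken on counts, not on the log2 scale. No chance rate can therefore be set beside this number. HEY2 was 2620 in adult control 4, and the next control had 342, a gap of 0.898 of the range of the group. NOTCH2 was 5045 in adult control 6, and the next control had 6575, a gap of 0.846 of the range of the group.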

How the results depend on the processing

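With the filter left out, pseudocounts of 0.5 or 5, TMM factors or quantile normalization, the count of genes called stayed within 1.5 times in all 5 comparisons. DESeq2 called 261 genes for testosterone in the fetus against 3 in limma, 7 against 2 in the adult, 5185 against 3169 for age in the controls and 10 against 1 for the interaction, and edgeR called 1 in the adult. Library weights, whose fit did not fully converge, gave 59 in the adult, 9775 and 6210 for age in the controls and testosterone libraries and 734 for the interaction. The single fit to both treatments, which pools the 2 age comparisons, gave 6917 for age. The germ cell covariate gave 1 in the fetus, and each adult table alone 1 in the adult. Leaving out 1 library gave 0 to 13 genes in the fetus, 1 to 1 in the adult, 1014 to 4125 for age in the controls, 1435 to 3921 in the testosterone libraries and 1 to 1 for the interaction.

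Sample numbers were used as a replicate block in the testosterone comparisons only. Libraries of the same number correlated in their deviations from the group means at 0.13, 0.0093 and 0.40 in the fetuses. In the adults these correlations were 0.055, 0.30, -0.64 and -0.19. Those of different numbers ran from -0.34 to 0.27 in the fetuses and from -0.62 to 0.68 in the adults. With so few values it cannot be decided whether the numbers pair the samples. With the block 10 genes passed in the fetus and 0 in the adult, none of them a member.

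Signs changed for members in comparisons where they had not passed in limma. HEY2 in the fetus was 0.011 with quantile normalization. NOTCH1 in the adult was -0.37 in DESeq2, -0.36 in edgeR, -0.34 and -0.37 in the first and second adult table and -0.063 with the luteal covariate. With library weights the adult changes were 0.16 for NOTCH4, 0.23 for DLL4, 0.0042 for HES1 and 0.51 for HEY1. For age, NOTCH1 in the controls was 0.17 in DESeq2 and 0.13 in edgeR, against -0.23 in limma. With weights it kept the sign of limma and passed, at -1.13 with an adjusted p of 0.00048. In the testosterone libraries NOTCH1 was -0.0069 with TMM, -0.011 with quantile normalization and -0.20 with weights, and NOTCH2 was 0.36 with weights. In the fit to all libraries of both treatments NOTCH1 was -0.11. For the interaction NOTCH1 was -0.15 in DESeq2 and -0.089 in edgeR, JAG1 was 0.14 with quantile normalization, and HEY1 was 0.024 with TMM and 0.013 with quantile normalization. With weights it was 0.33 for NOTCH4, 0.19 for JAG1, 0.35 for DLL4 and 0.85 for HEY1. The cause was not tested.

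Leaving out 1 library also turned signs. In the fetus the ranges were -0.37 to 0.13 for NOTCH2, -0.20 to 0.025 for NOTCH4, -0.39 to 0.12 for DLL4, -0.11 to 0.12 for HES1 and -0.18 to 0.18 for HEY2. In the adult they were -0.30 to 0.57 for NOTCH1, -0.18 to 0.46 for NOTCH2, -0.67 to 0.082 for JAG1, -0.57 to 0.16 for DLL4 and -0.73 to 0.17 for HEY1. For age NOTCH1 ran from -0.79 to 0.089 in the controls and from -0.081 to 0.19 in the testosterone libraries, where NOTCH2 ran from -0.54 to 0.087. For the interaction they were -0.074 to 0.80 for NOTCH1, -0.019 to 0.61 for NOTCH2, -0.39 to 0.36 for JAG1, -0.48 to 0.25 for DLL4 and -0.41 to 0.50 for HEY1. The age changes of NOTCH4, JAG1, DLL4, HES1, HEY1 and HEY2 kept their sign under every alternative run. Still, HEY2 in the controls ranged from -0.37 in DESeq2 to -2.47 in limma without adult control 4.

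With 3 or 4 libraries in a group, small changes cannot be told from the spread, and in the adult the 95% intervals reached from -4.41 to 0.29 for HEY2. The fewest reads behind a member were those of HEY2 in adult testosterone 7, at 36.4 normalized counts.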
